A study of Caenorhabditis elegans with 6 samples.

Results

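The cyp-35 genes are a group of closely related cytochrome P450 genes of Caenorhabditis elegans, split by sequence into the subgroups A, B, C and D. The 10 genes named cyp-35A1 to cyp-35A5, cyp-35B1 to cyp-35B3, cyp-35C1 and cyp-35D1 were found by matching the sequence names on the arrays to gene symbols. Each of them had 1 probe, a long oligonucleotide spotted once on each array, and the 10 genes were read among 18999 features tested. All 10 lie on chromosome V. Their sequence names, in the same order, are C03G6.14, C03G6.15, K09D9.2, C49G7.8, K07C6.5, K07C6.4, K07C6.3, K07C6.2, C06B3.3 and F14H3.10.

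Cytochrome P450 enzymes are haem proteins of the endoplasmic reticulum that put an oxygen atom from molecular oxygen into a substrate, with electrons passed on by a P450 reductase and, for some reactions, by cytochrome b5. For organophosphorus pesticides such as chlorpyrifos (CPF) and diazinon (DZN) this oxidation can go either of 2 ways. It can replace the sulphur on phosphorus by oxygen, which makes the oxon that inhibits acetylcholinesterase, or it can split off the ring, which inactivates the compound. In C. elegans the cyp-35 genes are known as genes of the intestine, and several of the A and C genes are known to respond to many unrelated foreign compounds.

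Nematodes of the wild-type strain N2 were grown at 24 °C on agar seeded with OP50 bacteria. The treated group, CPF+DZN, received 0.5 mg/L CPF and 1 mg/L DZN dissolved in acetone from the egg stage on, and the control group received acetone alone. RNA was taken from whole nematodes, pooled over culture dishes, and the 2 groups were hybridised together on 6 arrays. The mixture carried Cy5 on 3 arrays and Cy3 on 3, and arrays are named below by that dye and their replicate number. The labels give an age of 72 h and the stage as L3/L4, whereas the methods of the study give a shorter time and late L3, which leaves the age of the nematodes unsettled. In whole nematodes, fewer cells of a type and less RNA per cell cannot be told apart.

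The share of C. elegans probes well above background ran from 44.1 to 54.9% in the mixture channel and from 47.9 to 58.1% in the control channel. This term means that the spot's median lay over the median of its local background by more than 2 SDs of that background. The array headers gave 6 control extract numbers but 5 mixture extract numbers, because one of them stood both for mixture in Cy5 replicate 2 and for mixture in Cy3 replicate 1. Slide numbers placed mixture in Cy5 replicates 1 and 2 in an earlier series of slides and the other 4 arrays in a later one. Mixture in Cy5 replicate 3 stood apart from the rest, with a mean correlation of 0.276 with the other arrays across genes, which are not independent replicates. All 11 intestinal markers were well above background in both channels on at least 3 arrays. So were all 17 oocyte and yolk markers, genes of the adult germ line and of yolk synthesis, beside a labelled stage of L3/L4. The methods of the study state 6 independent biological replicates per treatment, beside the 5 mixture extract numbers found here. The p-values reflect only how far the arrays spread, which may be technical in part, and 6 arrays limit the precision.

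The question put to these genes was which subgroups responded to CPF+DZN, and how far each member did. Transcripts of all 5 A genes, of cyp-35B1 and of cyp-35C1 were higher with CPF+DZN than in the control, whereas those of cyp-35B2, cyp-35B3 and cyp-35D1 were not measurable in either group. In the limma fit over all features, 7 of the 10 genes passed an adjusted p of 0.05 as higher and 0 as lower. Over all features 6.74% were called higher and 7.13% lower. Ratios above 0 on all 6 arrays were found for 6 of the 10 genes and for 8.76% of all features. The linear model of the study's methods, at an unadjusted p of 0.01, called the same number of cyp-35 genes higher, 7, beside 5.01% of all features. The median log2 ratio of the 10 genes was 1.42, against 0.00013 over all features. The increases ran from 21.5-fold for cyp-35A4 down to estimated lower bounds on the mean of 1.34-fold for cyp-35A1 and 1.17-fold for cyp-35B1. Of the 11 features in the whole data set that were called at least 8-fold higher, 2 were cyp-35 genes, cyp-35A4 and cyp-35C1.

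**Figure D1:**
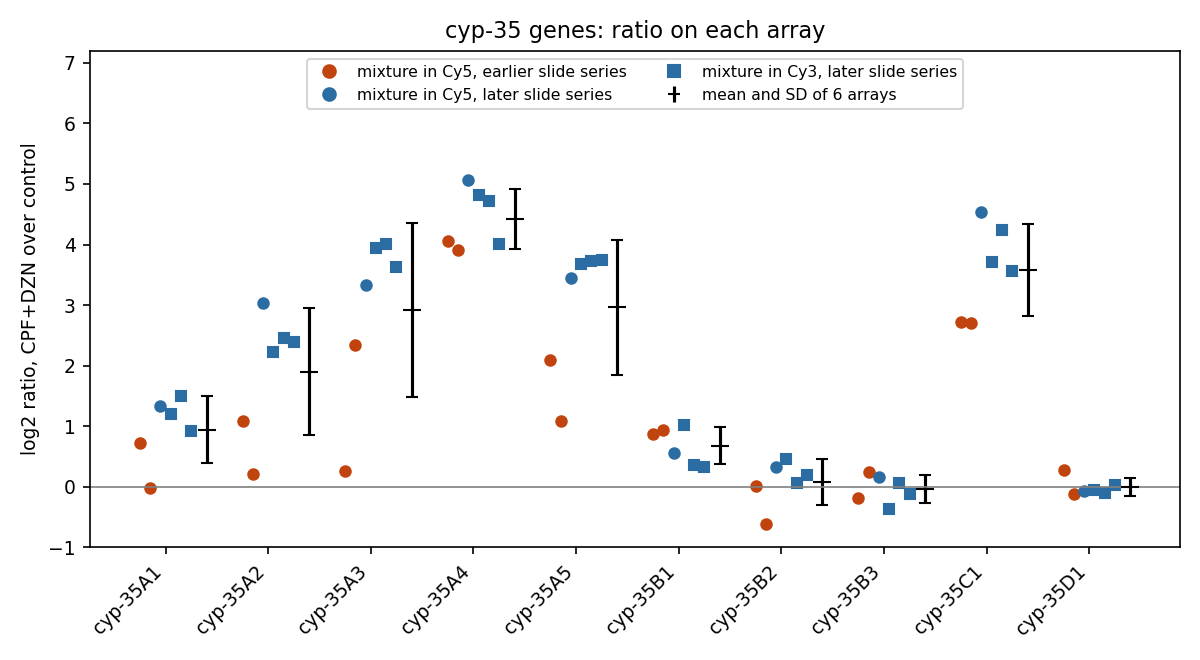
The log2 ratio of CPF+DZN over control (vertical axis) is plotted for each cyp-35 gene on each of 6 arrays. Circles are arrays with the mixture in Cy5, squares those with the mixture in Cy3, colours the slide series, and bars the mean ± SD. The points of cyp-35A4 lie between 3.91 and 5.06, and those of cyp-35D1 between -0.11 and 0.27.

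Of the A subgroup, cyp-35A4 had the highest ratio. Its log2 ratio was 4.06, 3.91 and 5.06 on mixture in Cy5 replicates 1, 2 and 3 and 4.82, 4.71 and 4.00 on mixture in Cy3 replicates 1, 2 and 3. The lowest of the 6 arrays thus still showed a strong increase, and the arrays of the 2 dye orientations overlapped. Over the 6 arrays it rose by 4.43 ± 0.49 (SD, n = 6, adjusted p = 1.90e-05), the third highest ratio of all features. If the shared extract number stands for 1 extract, the mixture had 5 samples, and with those 2 arrays averaged all 7 cyp-35 calls were kept, with cyp-35A4 at 4.44 (adjusted p = 0.000168) and the other 6 at adjusted p from 0.00221 to 0.0250. On single arrays it ranked between place 2 and place 10 among all features. The scanner signal above background, in arbitrary units, was 5877, 5880 and 4759 in the mixture channel and 394, 388 and 84 in the control channel where the mixture was in Cy5. Where the mixture was in Cy3, it was 3935, 3171 and 6486 in the mixture channel and 117, 127 and 546 in the control channel. Both channels were well above background on all 6 arrays, so cyp-35A4 was measured in control nematodes too. Plain subtraction of the background, which takes nothing but the local background away, gave 11.9-fold to 56.7-fold on single arrays and 30.0-fold over the 6. The call of cyp-35A4 was kept in 25 of 25 alternative analyses.

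The sister genes cyp-35A3 and cyp-35A5 rose by similar amounts on average, but with a wider spread. The log2 ratio of cyp-35A3, a gene often used as a reporter of the response to foreign compounds, was 0.26, 2.33 and 3.34 on mixture in Cy5 replicates 1 to 3. On mixture in Cy3 replicates 1 to 3 it was 3.94, 4.00 and 3.62. A single array, mixture in Cy5 replicate 1, was far below the others. On that array neither channel of the cyp-35A3 spot was well above background, with a signal of 16 in the mixture and 5 in the control, whereas on the other 5 arrays both channels were. The mixture signal on those 5 was 1579, 4421, 2194, 2082 and 1519, against 322, 401, 124, 143 and 126 in the control. Over all 6 arrays cyp-35A3 rose by 2.92 ± 1.44 (adjusted p = 0.00356), and without mixture in Cy5 replicate 1 the ratio was 3.35.

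For cyp-35A5 the log2 ratio was 2.10, 1.08 and 3.46 with the mixture in Cy5 and 3.68, 3.73 and 3.74 with the mixture in Cy3. The first 2 arrays with the mixture in Cy5 were low, and the remaining 4 lay close together. The mean was 2.96 ± 1.12 (adjusted p = 0.00102). In the mixture channel cyp-35A5 was well above background on 5 arrays, with signals from 281 to 1936, but in the control on 2 arrays alone, with signals of 94 and 160. On the other 4 arrays the control signal was between -4 and 36. The size of the increase therefore depended on how the dim control was treated, and with plain background subtraction it was 4.51 on the log2 scale over the 5 arrays that gave a value.

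The remaining A genes, cyp-35A1 and cyp-35A2, are direct neighbours. Knockdown of cyp-35A2 is known to reduce fat storage in nematodes. Its log2 ratio was 1.08, 0.20 and 3.04 with the mixture in Cy5 and 2.22, 2.46 and 2.38 with the mixture in Cy3. All 6 values were above 0, and mixture in Cy5 replicate 2 was close to it, with signals of 131 in the mixture and 133 in the control. Both channels were well above background on all 6 arrays, and the mean increase was 1.90 ± 1.05 (adjusted p = 0.0116). Single arrays decided whether cyp-35A2 passed. Leaving out mixture in Cy3 replicate 2 gave a ratio of 1.87 (adjusted p = 0.0547), and leaving out mixture in Cy3 replicate 3 one of 1.89 (adjusted p = 0.0595). Plain background subtraction ended the call too (2.22, adjusted p = 0.0693). Over its 25 alternatives the adjusted p ran from 5.41e-05 to 0.0980.

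For cyp-35A1 the log2 ratio was 0.72, -0.01 and 1.33 with the mixture in Cy5 and 1.21, 1.50 and 0.92 with the mixture in Cy3. It was above 0 on 5 of 6 arrays. The mixture signal was 32, 22 and 113 and then 72, 92 and 53, well above background on 3 arrays, whereas the control signal ran from -5 to 35 and was well above background on none. Only an estimated bound on the mean can be given for such a gene, and for cyp-35A1 it was 1.34-fold (fitted log2 ratio 0.94 ± 0.55, adjusted p = 0.0142). The bound averages all 6 arrays, also those where the mixture was not well above background, and need not hold on each. Leaving out mixture in Cy3 replicate 2 or replicate 3 ended the call of cyp-35A1, at 0.87 (adjusted p = 0.0635) and 1.02 (adjusted p = 0.0523). Over its 24 alternatives the adjusted p ran from 0.00404 to 0.186. Probes that were well above background on no array in the control but on at least 3 in the mixture were rare, 18 features or 0.0947% of all, and cyp-35A1 and cyp-35B1 were 2 of them.

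The single C gene, cyp-35C1, had ratios within the range of the A genes. Its log2 ratio was 2.73, 2.70 and 4.54 with the mixture in Cy5 and 3.71, 4.24 and 3.56 with the mixture in Cy3. The first 2 arrays were the lowest, and mixture in Cy5 replicate 3 was the highest. The signal was 3621, 3978 and 9208 in the mixture and 654, 653 and 353 in the control on the arrays with the mixture in Cy5. With the mixture in Cy3 it was 4888, 2028 and 6605 against 406, 106 and 777. Both channels of cyp-35C1 were well above background on all 6 arrays. No spot of any of the 10 genes was saturated in either channel. Transcripts of cyp-35C1 were 11.9-fold higher (log2 ratio 3.58 ± 0.76, adjusted p = 0.000328), the seventh highest ratio of all features, and the call was kept in 25 of 25 alternatives.

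**Figure D2:**
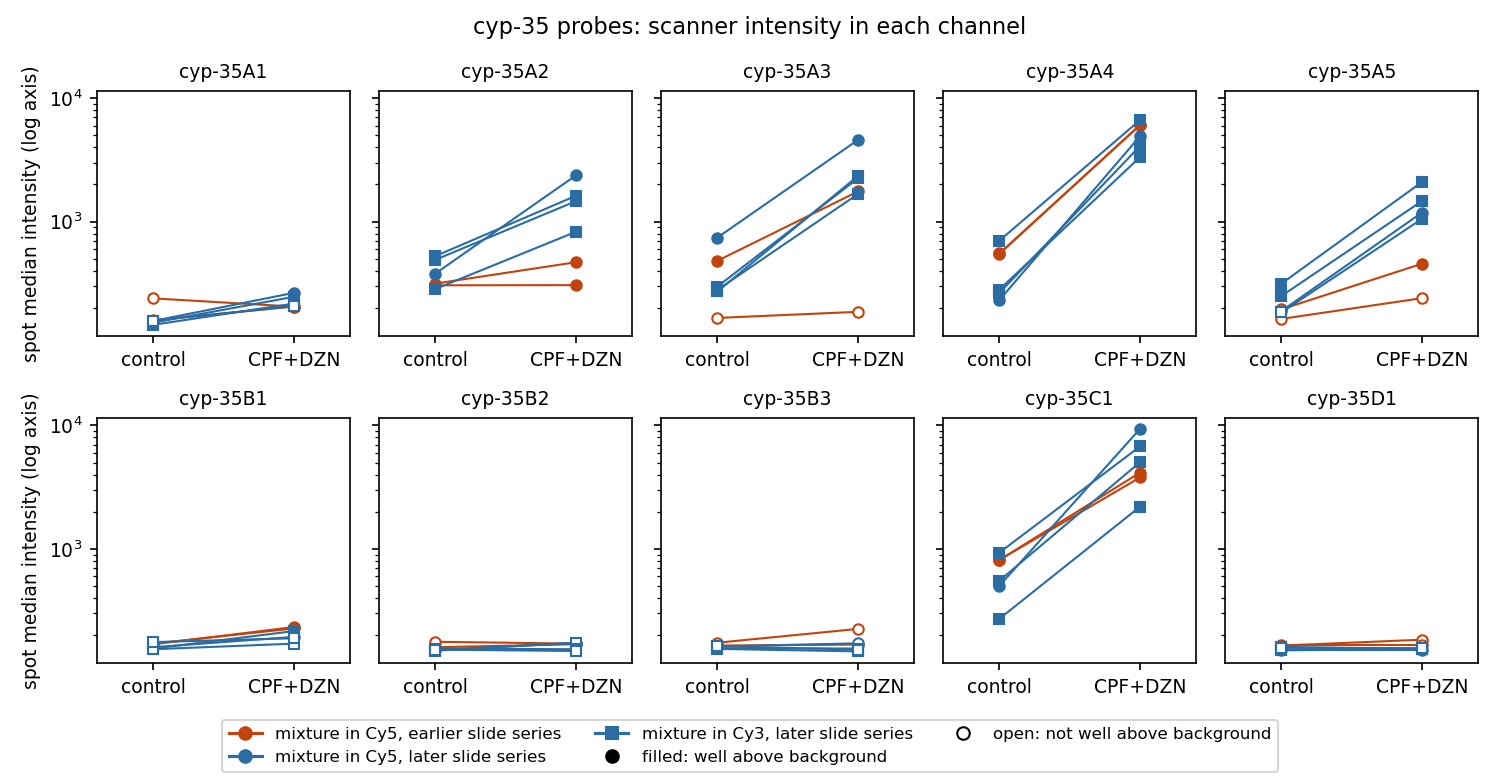
The median scanner intensity of each cyp-35 spot (vertical axis, logarithmic, arbitrary units, background not removed) is joined between the control and the CPF+DZN channel of the same array. Filled symbols were well above background and open symbols were not, circles are arrays with the mixture in Cy5 and squares with the mixture in Cy3, and colours mark the slide series. In the control channel cyp-35A4 and cyp-35C1 were well above background on 6 arrays and cyp-35A1 and cyp-35B1 on none.

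Of the B subgroup cyp-35B1 alone was detected, in the mixture. The known role of cyp-35B1 is as a gene that is highly expressed in long-lived daf-2 insulin receptor mutants, under the transcription factor DAF-16. Its log2 ratio was 0.87, 0.94 and 0.55 with the mixture in Cy5 and 1.02, 0.35 and 0.33 with the mixture in Cy3. It was thus above 0 on every array. The mixture signal was 62, 66 and 34 and then 68, 17 and 29, well above background on 3 arrays, and the control signal of -2 to 14 was on none. The estimated bound on the mean of cyp-35B1 was 1.17-fold (fitted log2 ratio 0.68 ± 0.31, adjusted p = 0.0125), again over arrays with and without a detected mixture. The call was lost with the later slide series alone (0.56, adjusted p = 0.0974) and with plain background subtraction, where the ratio was 3.07 (adjusted p = 0.0761). Over its 25 alternatives the adjusted p ran from 0.00332 to 0.728, and that highest value was for the spots of a single array.

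Its neighbours cyp-35B2 and cyp-35B3 and the D gene cyp-35D1 were well above background in neither channel on any array, as were 34% of all features. The log2 ratio of cyp-35B2 ran from -0.61 to 0.46 (mean 0.07 ± 0.38, adjusted p = 0.776) and that of cyp-35B3 from -0.36 to 0.24 (mean -0.03 ± 0.23, adjusted p = 0.867). Signals of both lay between -62 and 27 units in the 2 channels. The known function of cyp-35D1 is hydroxylation of the anthelmintic thiabendazole, and its induction by that drug needs the nuclear receptor NHR-176. With CPF+DZN its log2 ratio was 0.27, -0.11 and -0.06 and then -0.05, -0.10 and 0.04, close to 0 on all arrays but the first (mean -0.0013 ± 0.15, adjusted p = 0.995). Its signal was -5 to 20 units in the 2 channels. A response of these 3 genes was not detectable at such signals over background, which does not show that they were silent.

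The order among the responding genes was read within arrays, since both genes of a pair share the array and its extracts. The gene cyp-35A4 had the highest fitted ratio of the 10 on 6 of 6 arrays. In second place stood cyp-35C1 on 4 arrays and cyp-35A3 and cyp-35A5 on 1 array each. The ratio of cyp-35A4 exceeded that of cyp-35C1 by 0.85 ± 0.41 on the log2 scale, with differences from 0.44 to 1.34. It exceeded that of cyp-35A5 by 1.46 ± 0.88. The ratio of cyp-35A3 less that of cyp-35A4 was -1.51 ± 1.24, and that of cyp-35A2 less that of cyp-35A4 was -2.53 ± 0.74. Each of these held its sign on 6 of 6 arrays. The ratio of cyp-35A2 was below that of cyp-35A5 by a mean difference of -1.07 ± 0.39 and below that of cyp-35C1 by one of -1.68 ± 0.45, again on every array.

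With 7 genes there were 21 pairs, and for each an exact sign-flip permutation test over the 6 arrays, two-sided, cannot go below p = 0.03125. In total 13 pairs had the same sign on all 6 arrays and reached that smallest p, and adjusted over the 21 pairs it was 0.0505, so 0 pairs passed 0.05. A total of 11 pairs involved cyp-35A1 or cyp-35B1, whose fitted ratios are not measured against a detected control. These 2 genes entered through the mixture channel alone, and the adjustment over the 21 pairs includes them. Of the 10 pairs without them, 6 had the same sign throughout, but 4 of the 10 involved cyp-35A5, whose control was detected on 2 arrays alone, so its differences are those of the fitted ratios. With plain background subtraction single arrays could change the order. On mixture in Cy5 replicate 2 cyp-35B1 was at 22-fold, against an undetected control, and cyp-35A4 at 15.2-fold. On mixture in Cy3 replicate 3 cyp-35A5 was at 12.1-fold and cyp-35A3 at 12.06-fold, above cyp-35A4 at 11.88-fold. Both channels of these last spots were well above background, so the first place of cyp-35A4 on every array is that of the fitted ratios. With no background correction 14 pairs passed. Pairs at the smallest p pass or fail together, so this is a change from 13 to 14 pairs with the same sign on all 6 arrays.

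Neighbours in the middle of the order were not separated. The ratio of cyp-35A3 differed from that of cyp-35A5 by -0.05 ± 1.01 (exact permutation test, adjusted p = 0.906), with a 95% interval of -1.11 to 1.01, and was the higher on 3 of 6 arrays. For cyp-35A5 against cyp-35C1 the difference was -0.61 ± 0.66 (exact permutation test, adjusted p = 0.109), with an interval of -1.31 to 0.08. For cyp-35A3 against cyp-35C1 it was -0.66 ± 1.01 (exact permutation test, adjusted p = 0.173), with an interval of -1.73 to 0.40. The differences between cyp-35A1 and cyp-35B1 (0.27 ± 0.75, with cyp-35A1 the higher on 4 arrays) and between cyp-35A2 and cyp-35A3 (-1.02 ± 1.09, with cyp-35A2 the higher on 1) did not pass either (exact permutation test, adjusted p = 0.427 and 0.109). These intervals leave room for differences of more than 1 on the log2 scale. Cross-hybridisation between probes of these similar A genes was not tested.

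How strongly the genes responded also varied from array to array, and most of them were low on the same arrays. The median ratio of the 5 A genes was 1.08 on both arrays of the earlier slide series. On the 4 arrays of the later series it was between 3.34 and 3.73. The median on mixture in Cy5 replicate 1 includes the cyp-35A3 spot (0.26) that was well above background in neither channel. On mixture in Cy5 replicate 2 the median is the value of cyp-35A5, which was well above background in neither channel there. For cyp-35A1, cyp-35A2, cyp-35A3, cyp-35A5 and cyp-35C1 every array of the later series lay above both of the earlier. The ranges were 0.20 to 1.08 against 2.22 to 3.04 for cyp-35A2, 1.08 to 2.10 against 3.46 to 3.74 for cyp-35A5 and 2.70 to 2.73 against 3.56 to 4.54 for cyp-35C1. The dim cyp-35B2 showed the same order, so that 6 of the 10 genes did, and 0 the opposite one. Over all features 12.9% lay higher in the later series on every array and 10.3% lower. In cyp-35A4 the series overlapped, with 3.91 to 4.06 in the earlier and 4.00 to 5.06 in the later. In cyp-35B1 the earlier arrays were the higher on average (0.91 against 0.56), again with overlap.

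An exact test of 2 arrays against 4 cannot go below p = 0.133, two-sided, so the difference between slide series cannot pass. Both earlier arrays had the mixture in Cy5, so series and dye orientation are partly confounded. The dye term of the fit, adjusted over all features, passed for none of the 10 genes, but it ran from -1.88 for cyp-35A3 to 0.22 for cyp-35B1. The mean ratio of cyp-35A3 was 1.98 with the mixture in Cy5 and 3.86 with it in Cy3. For cyp-35A5 these means were 2.21 and 3.72. The SDs of cyp-35A3, cyp-35A5, cyp-35A2 and cyp-35C1, 1.44, 1.12, 1.05 and 0.76, are to be read beside a median SD of 0.25 over all features.

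Marker lists varied between arrays as well. The oocyte and yolk list joins germ-line and yolk synthesis genes, so it does not stand for a single cell type. All 17 oocyte and yolk genes fell, beside 7.13% of all features called lower, with a median log2 ratio of -1.45. Examples were vit-4, a yolk protein gene (-1.68 ± 0.75, adjusted p = 0.00940), and perm-4, a gene of the eggshell permeability barrier (-1.0 ± 0.48, adjusted p = 0.00789). On mixture in Cy5 replicates 1 and 2 the median of this list was -1.88 and -2.56, and on the later arrays it was -0.30 for mixture in Cy5 replicate 3 and -0.95, -1.29 and -1.83 for mixture in Cy3 replicates 1 to 3. The mean normalized log2 level of the list was 10.24 to 12.03 in the mixture and 12.14 to 12.69 in the control, with every one of its genes detected in both. Mixture in Cy5 replicate 3, the array with the smallest fall of these markers, had the highest ratios of cyp-35A4, cyp-35C1 and cyp-35A2. Mixture in Cy5 replicate 2, the array with the largest fall, had the lowest ratios of these 3 genes and of cyp-35A1 and cyp-35A5. The orders did not match throughout. Mixture in Cy3 replicate 3 had a marker median of -1.83, near the -1.88 of mixture in Cy5 replicate 1. The median ratio of the A genes was 3.62 on the former array and 1.08 on the latter.

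Of the 10 sperm genes measured of 11 listed, 6 fell and 0 rose (median -0.65), among them ssp-31 (-1.20 ± 0.56, adjusted p = 0.00696) and ssp-33 (-1.12 ± 0.50, adjusted p = 0.00696). Their median was -1.14 and -1.40 on the earlier arrays and -0.22 to -0.63 on the later. The mean level of the sperm list was 8.66 to 9.81 in the mixture and 9.45 to 10.07 in the control, and ssp-9 was well above background in neither. Of the intestinal markers 4 of 11 rose and 0 fell, beside 6.74% of all features called higher and 7.13% lower. Their median ratio was 0.15, and array by array it lay between 0.09 and 0.51. The gut protease genes cpr-1 (0.81 ± 0.33, adjusted p = 0.00420) and asp-3 (0.53 ± 0.12, adjusted p = 0.00792) were among them. Background subtraction ended the calls of both (adjusted p = 0.0719 and 0.0931), which is the highest adjusted p of either over its alternatives, and median centring that of asp-3 (0.32, adjusted p = 0.0527). The mean level of the intestinal list was 11.97 to 12.46 in the mixture and 11.76 to 12.18 in the control. The part of any of these shifts in the cyp-35 ratios was not tested.

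**Figure D3:**
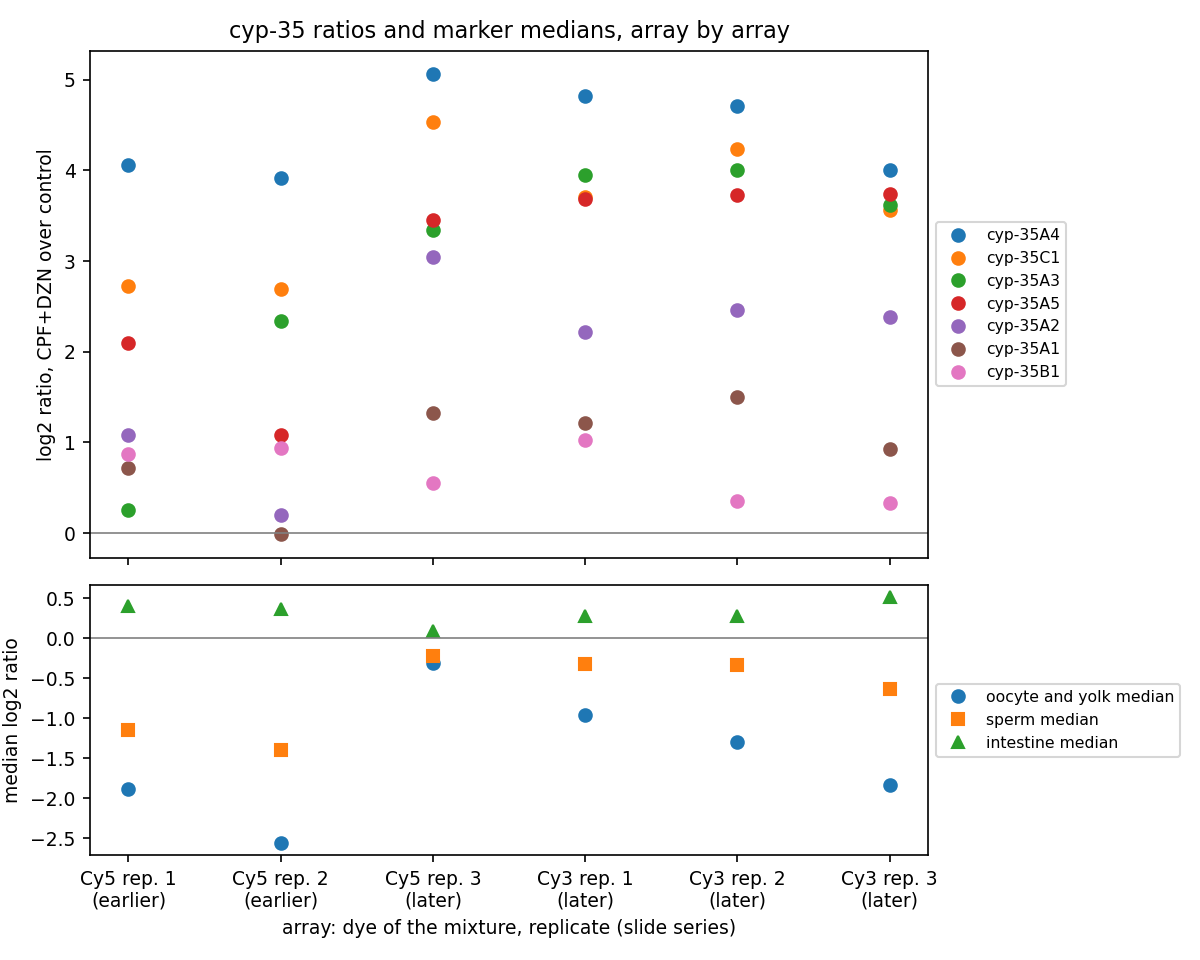
The upper panel plots the log2 ratio of CPF+DZN over control of the 7 higher cyp-35 genes on each of 6 arrays, and the lower panel the median log2 ratio of the oocyte and yolk, sperm and intestine markers on the same arrays. The 2 arrays of the earlier slide series have A gene medians of 1.08, which rest in part on undetected spots, and oocyte and yolk medians of -1.88 and -2.56. The highest point on every array is cyp-35A4.

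The cyp-35 genes sit in 5 places on chromosome V. In the gene order of assembly WBcel235, used here for order and names alone, cyp-35A5, cyp-35B1, cyp-35B2 and cyp-35B3 follow one another without a gene between them. Their fitted log2 ratios were 2.96, 0.68 (a bounded ratio), 0.07 and -0.03, the last 2 with both groups below detection, so how far these neighbours differ in response is not shown. The genes cyp-35A1 and cyp-35A2 are direct neighbours, at 0.94 (a bounded ratio) and 1.90. A single gene, K09D9.1, lies between cyp-35A3 and cyp-35A4, and it rose by 0.74 ± 0.12 (adjusted p = 0.00228), detected in the control on 5 arrays. The gene cyp-35D1 stands next to nhr-176, the receptor gene that its induction by thiabendazole needs, which was not well above background in either group (-0.17 ± 0.37, adjusted p = 0.461).

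Among the 3 genes to each side of these places and the 1 inside them, 24 of 31 had a probe. Of these, 4 were called higher and 0 lower (median ratio 0.04), beside 6.74% and 7.13% of all features. In 1 of the 4, spp-12, neither group was well above background, so its change was not measured. Beside K09D9.1 they were lbp-8 near cyp-35C1, which encodes a lipid-binding protein of the lysosome (1.50 ± 0.28, adjusted p = 0.000545, detected in the control on 2 arrays), F14H3.12 near cyp-35D1 (0.71 ± 0.44, adjusted p = 0.0275) and spp-12 near cyp-35C1 (fitted ratio 0.47 ± 0.38, adjusted p = 0.0446). All 4 were named after their values were seen. The calls of F14H3.12 and spp-12 were lost in 12 of 25 and 15 of 24 alternatives, with adjusted p over all of them from 0.00231 to 0.213 and from 0.0180 to 0.580. That of F14H3.12 ended without replicate 1 or replicate 2 of mixture in Cy5, and without replicate 2 or replicate 3 of mixture in Cy3 (adjusted p = 0.0729, 0.0906, 0.0902 and 0.107). Leaving out any array but mixture in Cy5 replicate 2 ended that of spp-12 (adjusted p from 0.0545 to 0.156).

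Of the genes that serve P450 enzymes, or are known to control cyp genes and fat metabolism, 25 of 26 listed had a probe. Of these, 4 rose and 1 fell (median ratio 0.15), beside 6.74% and 7.13% of all features. Electron donors of P450 enzymes gave 3 values. The cytochrome b5 gene cytb-5.1 rose by 1.45 ± 0.25 (adjusted p = 0.000248), and emb-8, which encodes the P450 reductase, by 0.55 ± 0.22 (adjusted p = 0.0101). The second cytochrome b5 gene listed, cytb-5.2, was at 0.02 ± 0.27 (adjusted p = 0.935). Of the fatty acid desaturase genes, fat-5 rose by 0.58 ± 0.18 (adjusted p = 0.0101), fat-7 had a lower ratio (-0.66 ± 0.59, adjusted p = 0.0274) and fat-6 was at 0.04 ± 0.15 (adjusted p = 0.819). The nuclear receptor gene nhr-25, known for its role in molting, rose by 0.76 ± 0.44 (adjusted p = 0.0220).

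The call of cytb-5.1 was kept in 25 of 25 alternatives. Those of fat-7 and nhr-25 were lost in 13 and 10 of 25. The call of fat-7 held with mixture in Cy5 replicate 3 left out and was lost without any other array (adjusted p from 0.0713 to 0.111, and from 0.000671 to 0.213 over all alternatives). That of nhr-25 was lost without replicate 1 or replicate 2 of mixture in Cy5 and without replicate 2 or replicate 3 of mixture in Cy3 (adjusted p from 0.0587 to 0.0779, and from 0.00571 to 0.174 over all alternatives). Those of emb-8 and fat-5 were lost in 3 of 25 each, among them median centring in place of loess (0.30 and 0.33). Regulators known from responses to stress or foreign compounds had values that did not pass, with 0.18 ± 0.09 for daf-16 (adjusted p = 0.153), 0.06 ± 0.27 for nhr-8 (adjusted p = 0.805) and -0.13 ± 0.18 for mdt-15 (adjusted p = 0.391), the Mediator subunit that xenobiotic induction of cyp-35 genes depends on. The highest values among those that did not pass were 0.52 ± 0.56 for pqm-1 (adjusted p = 0.0988), 0.50 ± 0.40 for nhr-48 (adjusted p = 0.0620) and 0.39 ± 0.60 for nhr-86 (adjusted p = 0.210). The stress regulator skn-1 was at 0.19 ± 0.31 (adjusted p = 0.279). The aryl hydrocarbon receptor gene ahr-1 was not well above background in either group. Genes listed here that did not pass were named after their values were seen.

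In the other cytochrome P450 families the highest ratios belonged to members of cyp-29, cyp-34 and cyp-25. Of 64 other cyp genes with a probe, 17 were called higher and 4 lower, beside 6.74% and 7.13% of all features. The median ratio of the 64 was 0.10, and 24 of them were well above background nowhere. The 3 with the smallest p were cyp-34A9 (2.16 ± 0.29, adjusted p = 1.90e-05), cyp-29A2 (2.47 ± 0.28) and cyp-25A2 (2.10 ± 0.33), and each kept its call in 25 of 25 alternatives. Their SDs of 0.28 to 0.33 were below those of all 7 higher cyp-35 genes but cyp-35B1. In the cyp-37 family 2 of 2 genes rose, in cyp-25 3 of 5, in cyp-29 2 of 4, in cyp-34 3 of 9, in cyp-33 2 of 17 and in cyp-13 1 of 12. The cyp-31 genes, of which some are needed for the eggshell, were the one family with genes called lower, 4 of 4, with a median of -0.57. The difference between families was not tested.

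**Figure D4:**
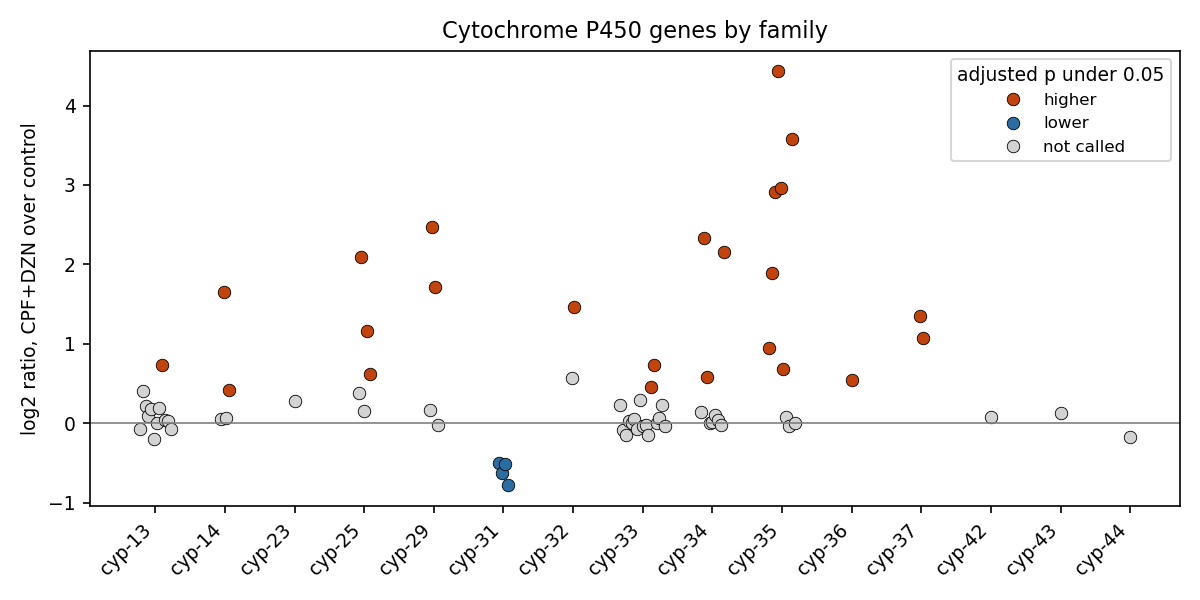
Each point is 1 cytochrome P450 gene, placed by family (horizontal axis) and by its log2 ratio of CPF+DZN over control averaged over 6 arrays (vertical axis), with colours for the call at an adjusted p of 0.05. In the cyp-35 family 7 of 10 genes were higher, up to 4.43, and in the cyp-31 family 4 of 4 were lower.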

How the data were processed

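The deposited scanner files hold the spot intensity of each channel (foreground and background medians, background SD) and the percent of saturated pixels per spot. Per the file headers they are scanner output without normalization. Log2 ratios of mixture over control, as deposited by the authors in a value table (column medians -0.00447 to -0.00010), served as an alternative (background correction: not given in the sources used here). Submitters' processing notes name limma 3.2.3.

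Foreground medians were corrected with normexp (offset 50), normalized by loess within arrays (weight 0 for control spots) and Aquantile between arrays, and fitted in limma 3.58.1 (R 4.3.3) with a mixture and a dye effect. Adjusted p is Benjamini-Hochberg over 18999 features, two-sided, with a threshold of 0.05. For 2049 genes with several probes the brightest by mean log2 intensity stood for the gene. Of 22490 probes 95.1% were named, 35 with disagreeing names left unnamed, and 742 control spots were left out. Array names come from GEO's labels, the slide series and extract numbers from the file headers. A bound on a fold is the bright group's mean against the dim group's mean of, per array, the higher of its own signal and the lowest signal of any detected probe. It is an estimate over all arrays, also those where the bright group was not well above background. Errors are SDs over arrays. The steps were tested on simulated data. Spot flags have no stated meaning, so all spots were kept.

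The 10 cyp-35 genes and all lists were chosen with earlier results of these data known. Named were all members, the called genes of the partner list, the 3 other cyp genes and up to 2 genes of each marker list with the smallest p. Unless another test is named, each adjusted p is from limma. Alternatives covered background, normalization, flags, blocks, left-out arrays, the value table and the methods' linear model.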

Additional observations from a re-analysis of the deposited data

How the results depend on the processing

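Of the 7 higher genes, cyp-35A4 and cyp-35C1 kept their calls in every alternative run. The number of higher cyp-35 genes, 7, fell to 4 with background subtraction and to 0 with spots of the commonest flag alone. Those spots are nearly all dim, and only 5 members had a value there. Of these, cyp-35A3 and cyp-35B1 had a single array each, and cyp-35B2, cyp-35B3 and cyp-35D1 were detected nowhere. The number fell to 2 with the methods' linear model after Benjamini-Hochberg adjustment. It was 5 to 7 with 1 array left out (5 without mixture in Cy3 replicate 2 or 3). Spots of flag 3 alone, an alternative chosen after seeing the data, gave 5 of the 5 members that had a value there. The 2636 called features became 153 with background subtraction, 3 with the commonest flag, 950 with the replicate block, 4609 with the slide series as a block, 891 within the later series, 1727 with the methods' linear model at p under 0.01 and 306 with it after adjustment, and 535 to 4609 with 1 array left out (4609 without mixture in Cy5 replicate 3). The slide series block and the fit without mixture in Cy5 replicate 3 gave the same count. That array alone carried the mixture in Cy5 in the later series, so dye and series terms together fit it exactly. These settings are thus not separate checks, though each was counted as an alternative. With the arrays of the shared extract number averaged, 1843 features and 7 cyp-35 genes were called. Median centring gave 4118, of which 679 were higher and 3439 lower, against 1281 and 1355, and left the cyp-35 count at 7. No background correction called 14 pairs in place of 0. All of them stood at the smallest possible p, which 13 pairs reached in the main analysis without passing. Pairs were not run with background subtraction or the value table, where values are missing, nor with 5 arrays, where the exact permutation test cannot go below p = 0.0625.

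Labels share replicate numbers 1 to 3 across dye orientations. By the file headers, same-numbered arrays carried different mixture extract numbers. Deviations of same-numbered arrays correlated at -0.11, -0.0065 and -0.23, but so few correlations cannot show whether the numbers pair the arrays. Under the replicate block cyp-35A1 lost its call (adjusted p = 0.0518).

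Ratios near 0 changed sign without a call. For cyp-35B3 (-0.03) these were background subtraction (0.29), no background correction (0.042), median centring (0.078), the value table (0.0071) and the later series (0.0096), and 1 array left out gave -0.086 to 0.030 (above 0 without mixture in Cy5 replicate 1, and 0.020 without mixture in Cy3 replicate 1). For cyp-35D1 (-0.0013) they were background subtraction (0.61), no background correction (0.0093), foreground means (0.013), median centring (0.14), print-tip loess (0.00043), the value table (0.016), the slide series block (0.023), the shared scan day (0.12) and the shared extract averaged (0.014), and 1 array left out gave -0.062 to 0.035. For cyp-35B2 the ratio was -0.030 with the slide series block, and 1 array left out gave -0.030 to 0.21. The cause of these changes was not tested. Signal over background limits cyp-35B2, cyp-35B3 and cyp-35D1 in both groups and cyp-35A1 and cyp-35B1 in the control.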

Other observations

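Other readings of the same arrays gave the cyp-35 genes other sizes. In the authors' log2 value table the mean was 3.82 ± 0.42 for cyp-35A4, 3.42 ± 0.83 for cyp-35C1 and 2.43 ± 1.31 for cyp-35A3 over 6 arrays, and 2.19 for cyp-35A5, 1.79 for cyp-35A2, 0.44 for cyp-35A1 and 0.31 for cyp-35B1 over the 5 arrays with a value. That table correlated with the scanner ratios with r from 0.846 to 0.921 across probes, which are not independent replicates. With plain background subtraction the mean log2 ratio was 4.91 ± 0.76 for cyp-35A4 and 3.86 ± 0.91 for cyp-35C1 over 6 arrays, and 4.51 for cyp-35A5 over 5. The control of cyp-35A5 was well above background on 2 of those arrays alone, so its subtracted ratio has no order against that of cyp-35C1.

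Of the 6 arrays 3 were scanned on the same day (mixture in Cy3 replicates 2 and 3, mixture in Cy5 replicate 1), and there the ratio was 2.03 for cyp-35A3, 1.75 for cyp-35A2, 2.92 for cyp-35A5 and 0.61 for cyp-35B1. Within the later slide series it was 3.60 for cyp-35A3, 2.70 for cyp-35A2 and 3.59 for cyp-35A5. In both subsets a single array carried the mixture in Cy5 and left no residual in the model with a dye effect. These fitted ratios weight both dye orientations equally, so that array counted as much as all others of its subset together. On the shared day it was mixture in Cy5 replicate 1, where cyp-35A3 was well above background in neither channel. The plain means of that day were 2.63 for cyp-35A3, 1.97 for cyp-35A2, 3.19 for cyp-35A5 and 0.52 for cyp-35B1.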
